A study of Mus musculus with 4 samples.

Results

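The 10 immediate early genes described here were followed in 4T1 mammary tumors: Fos, Fosl1 and Fosl2 of the Fos family, Jun, Junb and Jund of the Jun family, and Egr1, Atf3, Ier2 and Dusp1. These 10 genes were taken by symbol from a fixed list, out of 10955 genes with a listed transcript. The list was meant as a check on dissociation and sorting stress, which cannot be told apart here from other differences between the sets. Transcripts were found for 9 of the 10 in whole tumor. In the tumor Treg values 7 were above 0, 2 were listed at 0 and 1 had no listed transcript. All 7 ranked higher in the tumor Treg values than in either whole tumor library, as did 41.2% of all genes ranked, and Fos moved furthest of these genes. Between the whole tumor libraries 2 of the 9 were higher with LFPRLR SMO by a factor of 2, as were 18.4% of all genes compared, and none was lower, against 16.6% of all genes. The genes compared included some listed in only 1 library, unlike the 9. Of 8542 genes at an expression value (FPKM) of 1 or more in both, as the 9 were, 935 were higher and 883 lower.

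Immediate early genes are transcribed within minutes of a stimulus, without the need for newly made protein. Growth factors, cytokines and cell stress reach them through MAP kinases, serum response factor and CREB. Proteins of the Fos and Jun families pair through leucine zippers to form AP-1, which binds DNA at the sequence TGANTCA, and in tumors AP-1 acts on genes of invasion and inflammation. The same genes are known to be induced when tissue is dissociated with enzymes to free single cells.

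Tumors grew from 4T1 cells, a mammary carcinoma line of Balb/c origin, in the mammary fatpad of female Foxp3+EGFP Balb/c mice, which were 8 weeks old and express EGFP from the Foxp3 promoter. All mice carried this reporter and a pump that delivered a splice modulating oligomer (SMO) for 12 days. Control SMO binds no mouse transcript, and LFPRLR SMO acts on the splicing that makes the long prolactin receptor. RNA of 6 mice was pooled for each of 4 libraries. For whole tumor with Control SMO and whole tumor with LFPRLR SMO, RNA was taken from the tumor directly with Trizol. For tumor Tregs with Control SMO and tumor Tregs with LFPRLR SMO, tumors of additional mice were dissociated with Accutase and sorted on Foxp3-EGFP before RNA was taken. Each group was 1 library, so no value below has an SD or a p-value, and a ratio describes a pair of libraries and not the treatment.

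The 2 tumor Treg files were equal in the coordinates, coverage and FPKM of 4838 of 4838 transcripts. They were counted as 1 set, called the sorted values here, and no treatment comparison was made in it. The headers of both files name an input called control, so by its headers the set stands for Control SMO, and the sorted values for LFPRLR SMO were not analysed here. Of 22 T-cell genes, Foxp3 included, none had a listed transcript in the sorted values, while 22 of 22 macrophage genes were above 0. Whole tumor was much alike, with 1 T-cell gene above 0 in each library and 22 (Control SMO) and 21 (LFPRLR SMO) macrophage genes. Of 20 epithelial and 15 fibroblast genes, 8 and 4 were above 0 in the sorted values. The sorted values therefore did not carry the defining markers of their label, and they are described by how they were made. In whole tumor 9571 (Control SMO) and 9677 (LFPRLR SMO) genes were above 0, against 3067 in the sorted values. Of the bases covered in the sorted values, 74.0% lay on Rn45s, the ribosomal RNA precursor. Read counts are not given in the sources used here, and precision is given through coverage, the mean read depth over a transcript.

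Levels are in FPKM (fragments per kilobase of transcript scaled to the number of mapped fragments), which is per length, so that genes can be compared within a library. The FPKM of a gene was summed over its transcripts of at least 300 bases. At the median transcript, an FPKM of 1 stood for a coverage of 1.88 in the Control SMO tumor library, 1.75 in the LFPRLR SMO tumor library and 0.947 in the sorted values. FPKM of whole tumor and of the sorted values came from different programs and were normalized separately, so the sets were compared by rank. In bulk RNA, fewer cells of a type and less RNA per cell cannot be told apart. The percentile of a gene was taken among the 2538 genes above 0 in all 3 sets unless said otherwise.

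Fos (chr12:85473890-85477273, plus strand, GRCm38) encodes the founding Fos protein and was among the lowest listed genes of whole tumor. Its FPKM was 1.39 and 1.82 in the Control SMO and LFPRLR SMO tumor libraries, and 28.1 in the sorted values. It stood at percentile 0.985 and percentile 2.84 in whole tumor and at percentile 95.7 in the sorted values. Among all genes of each set, Fos was at rank 9015 of 9571 with Control SMO, 8510 of 9677 with LFPRLR SMO and 131 of 3067 in the sorted values.

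The listed Fos transcripts differed in how much of the gene they held. With Control SMO the single transcript was a piece of the last exon of 1306 bases with a coverage of 2.69, and it held 55.7% of the coding bases. With LFPRLR SMO a transcript of 4 exons and 1564 bases, at a coverage of 3.11, held 92.2% of them. In the sorted values the RefSeq transcript NM_010234 was listed whole, with exon coverages of 0, 43.7, 39.9 and 27.8 from the first exon to the last. A first exon at 0 was frequent there, in 387 of 1776 transcripts (21.8%) with a symbol and at least 2 exons. The spliced inner exons of Fos were thus the most deeply covered part of the gene in the sorted values.

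**Figure D1:**
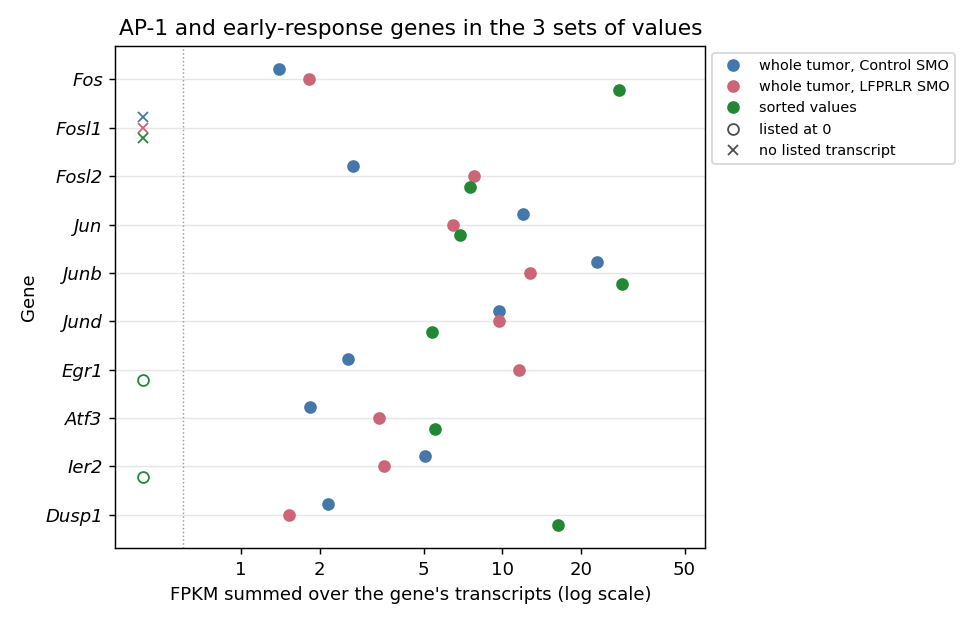
FPKM of the 10 genes (rows) on a log axis in whole tumor with Control SMO (blue), whole tumor with LFPRLR SMO (red) and the sorted values (green), with 1 library or set per point and no error bars. Open circles left of the dotted line are genes listed at 0 and crosses are genes with no listed transcript. Fos, Dusp1, Junb and Atf3 have their highest point in the sorted values, at 28.1, 16.4, 28.8 and 5.55. FPKM of the sorted values came from another program, so its level is not directly comparable with whole tumor.

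Dusp1 (chr17:26505590-26562128, minus strand) encodes the phosphatase that switches off MAP kinases after a stimulus. Its FPKM was 2.15 with Control SMO, 1.53 with LFPRLR SMO and 16.4 in the sorted values, or percentiles of 4.34, 1.58 and 92.2. It was low in both whole tumor libraries and among the highest genes of the sorted values. All 4 exons of NM_013642 were covered there, at 17.0, 20.5, 16.5 and 14.0.

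Atf3 (chr1:191170296-191218039, minus strand), a stress-induced bZIP factor of the ATF family, also had its highest percentile in the sorted values. Its FPKM was 1.84 with Control SMO, 3.37 with LFPRLR SMO and 5.55 in the sorted values, and its percentiles were 2.84, 13.4 and 69.0. The 2 whole tumor transcripts held all of its coding bases but were of 836 and 752 bases. In the sorted values the RefSeq transcript NM_007498 was listed at its length of 1976 bases, which is not a measure of how far reads reached.

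Junb (chr8:84974484-84978718, minus strand), the AP-1 subunit that often opposes Jun, was the highest of the 10 genes in every set. Its FPKM was 23.1 with Control SMO, 12.8 with LFPRLR SMO and 28.8 in the sorted values, and its percentiles were 77.5, 65.4 and 95.8. It is a gene with a single coding exon, and it was covered at 42.5, 22.0 and 27.3. Unlike Fos, it was thus well above most genes in whole tumor too.

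The 250 bases upstream of the RefSeq transcription start are shown for Fos, Dusp1, Junb and Atf3. These 4 are the members with a match to TGACG, the core shared by CREB and ATF sites. Sequences are from RefSeq (GRCm38.p6), 5′ to 3′ on the strand of the gene, with matches to TGACG on either strand (CGTCA), to TGACGTCA and to TATAAA in capitals.
Fos, chr12:85473640-85473889 (plus strand): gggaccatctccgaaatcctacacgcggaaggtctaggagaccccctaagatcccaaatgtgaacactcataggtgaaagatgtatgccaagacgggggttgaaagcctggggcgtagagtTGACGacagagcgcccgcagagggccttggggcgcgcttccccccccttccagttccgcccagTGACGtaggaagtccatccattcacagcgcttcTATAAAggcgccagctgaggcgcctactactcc
Dusp1, chr17:26508473-26508722 (minus strand): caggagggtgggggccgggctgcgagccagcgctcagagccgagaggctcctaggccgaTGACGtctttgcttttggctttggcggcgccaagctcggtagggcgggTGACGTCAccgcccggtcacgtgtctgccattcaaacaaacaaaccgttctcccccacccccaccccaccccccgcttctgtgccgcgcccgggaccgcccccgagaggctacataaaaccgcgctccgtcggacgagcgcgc
Junb, chr8:84978749-84978998 (minus strand): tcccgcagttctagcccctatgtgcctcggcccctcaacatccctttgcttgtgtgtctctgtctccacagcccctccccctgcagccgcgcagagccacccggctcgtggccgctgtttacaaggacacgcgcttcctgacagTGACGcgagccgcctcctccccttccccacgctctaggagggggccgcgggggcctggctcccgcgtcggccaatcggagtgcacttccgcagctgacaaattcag
Atf3, chr1:191183334-191183583 (minus strand): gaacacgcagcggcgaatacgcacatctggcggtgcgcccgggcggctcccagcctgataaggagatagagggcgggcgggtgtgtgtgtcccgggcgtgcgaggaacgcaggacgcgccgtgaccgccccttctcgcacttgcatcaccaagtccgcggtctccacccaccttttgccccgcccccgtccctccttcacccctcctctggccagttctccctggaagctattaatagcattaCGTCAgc

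Such a window was given for 7 members, and Fosl1, Ier2 and Egr1 were not searched. In Fos, TGACG was found at -129 to -125 and at -66 to -62 from the start, and TATAAA at -33 to -28. In Dusp1 the full palindrome TGACGTCA lay at -143 to -136, where it includes TGACG on both strands, with a further TGACG at -191 to -187. Junb held TGACG at -106 to -102, and Atf3 held CGTCA at -7 to -3. No match to TGACG was found in the windows of Fosl2, Jun and Jund, and none of the 7 held TGANTCA or the CArG box of serum response factor in these 250 bases. The windows of Fosl2, Dusp1 and Atf3 lay within the annotated gene. That of Jund ended at chr8:70697738, before the annotated start at 70698949. For these genes the bases just upstream of the annotated start were not searched. Over 32851 windows of the same length, 17.8% held TGACG on either strand, 1.55% TGACGTCA, 12.4% TATAAA, 6.75% TGANTCA and 1.47% a CArG box. A match is a description of the letters only.

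Fosl2 (chr5:32135801-32157842, plus strand), which encodes the Fos-family protein Fra-2, was listed in several pieces. Its FPKM was 2.69 with Control SMO from 2 transcripts, 7.81 with LFPRLR SMO from 3, and 7.53 in the sorted values from 2. Its percentiles were 7.13, 43.6 and 79.5. With LFPRLR SMO no single transcript joined the first exon to the last.

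Jun (chr4:95049034-95052222, minus strand) is a single-exon gene and the main Jun partner of Fos. Its FPKM was 12.0 with Control SMO, 6.48 with LFPRLR SMO and 6.92 in the sorted values, or percentiles of 56.6, 35.6 and 76.7. Jund (chr8:70698949-70700616, plus strand), the Jun gene known for steady expression, had an FPKM of 9.70 and 9.75 in whole tumor and 5.37 in the sorted values. The sorted value of Jund was the sum of 2 entries with the same exon, NM_001286944 and NM_010592, at 2.69 each. Its percentiles were 48.8, 55.1 and 68.1, and with the most abundant transcript only the last was 32.1, below whole tumor. The rise in rank of Jund was thus seen only with both entries summed. The entries had an equal coverage of 2.545, and whether the reads of the gene were split between them was not tested. If they were, 1 entry alone understates Jund.

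Egr1 (chr18:34859823-34864984, plus strand), a zinc finger factor of the growth factor response, and Ier2 (chr8:84661331-84662852, minus strand), a small nuclear protein gene, were both listed at 0 in the sorted values. In the Control SMO and LFPRLR SMO tumor libraries the FPKM of Egr1 was 2.56 and 11.6, and that of Ier2 was 5.06 and 3.52. Whether a listing at 0 is a failed estimate or a true absence was not tested. Of 87 transcripts of at least 300 bases listed at 0 in the sorted values, 76 had 1 exon, as Ier2 has, and 19 were of histone genes. Egr1 was listed with 2 exons. Jun, Junb and Jund had 1 exon there and were above 0. The share of transcripts with 1 exon over the whole set was not counted. Pcbp1, a widely used RNA-binding protein gene chosen here after its values were seen, was also at 0, with 28.2 and 10.5 in whole tumor.

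Fosl1 (chr19:5447547-5455946, plus strand), which encodes Fra-1, had no listed transcript in any set. Single-exon transcripts on the minus strand, assigned to the neighbouring gene Ccdc85b (named after its values were seen), lay over its exons. They had an FPKM of 6.03 over 1004 bases with Control SMO, 4.36 over 961 bases with LFPRLR SMO and 0.522 over 4401 bases in the sorted values. Whether strand was used in counting is not given in the sources used here, so reads of Fosl1 and Ccdc85b cannot be told apart.

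**Figure D2:**
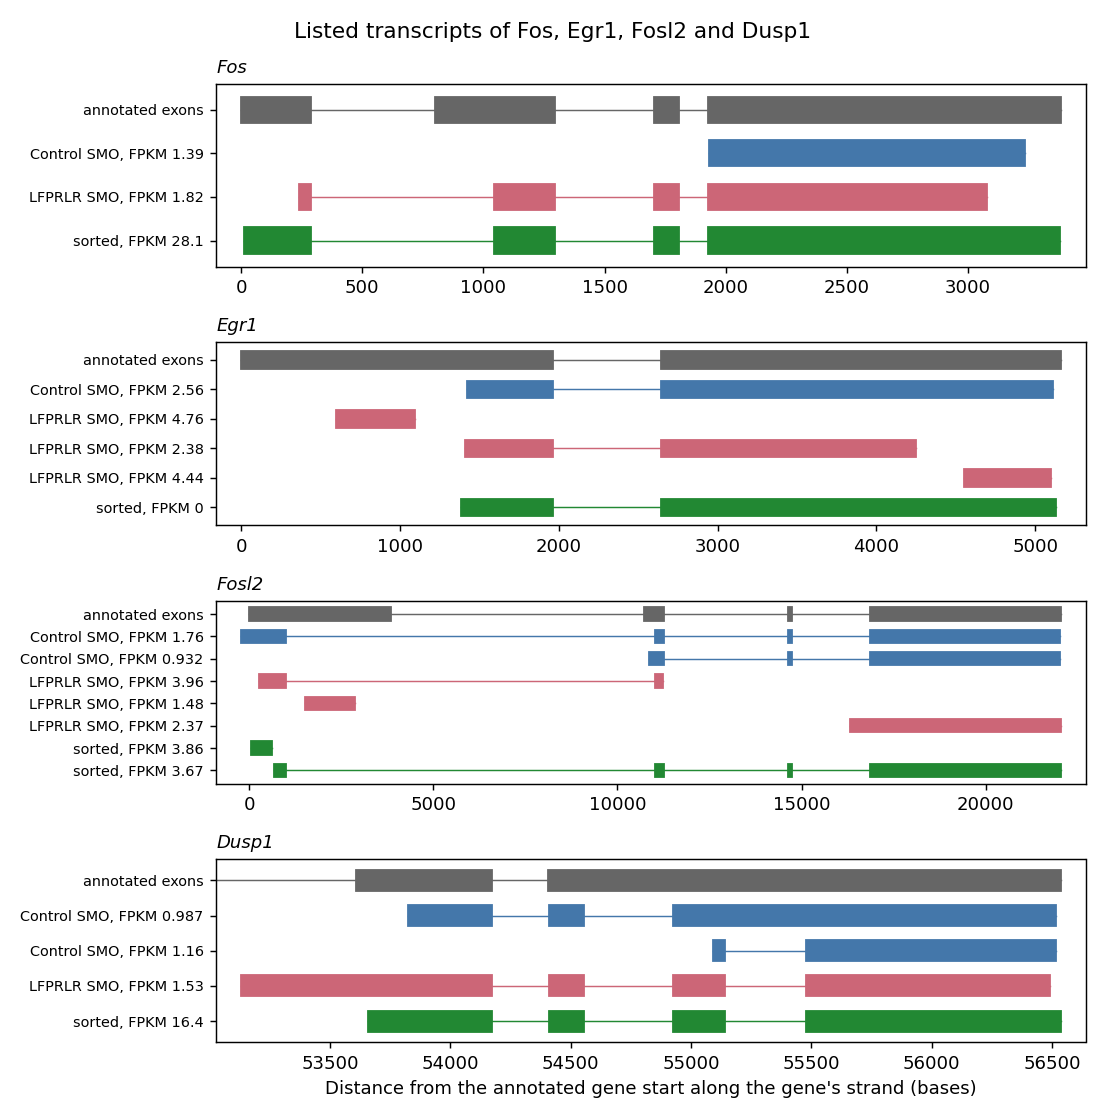
Exons (boxes) of the listed transcripts of Fos, Egr1, Fosl2 and Dusp1 against the annotated exons (grey), by distance in bases from the annotated gene start, with the FPKM of each transcript at the left; for Dusp1 only the end of the annotated span that holds listed transcripts is drawn. Egr1 and Fosl2 were each listed as 3 separate pieces with LFPRLR SMO, and Fos with Control SMO as the last exon alone.

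Against the whole tumor libraries, the sorted values ranked all 7 members with a rank higher, where 41.2% of the 2538 genes ranked higher than in both libraries and 42% lower. The size of the shift differed widely among the members. Taken as the percentile in the sorted values minus the mean of the whole tumor percentiles, it was 93.8 points for Fos, 89.2 for Dusp1, 60.9 for Atf3, 54.1 for Fosl2, 30.6 for Jun, 24.4 for Junb and 16.1 for Jund. The quartiles of all genes were -16.9 and 17.0 points. The shift of Fos was the largest of the 2538 genes, and 99.9% of genes lay below Dusp1, 98.1% below Atf3 and 96.3% below Fosl2. The shift of Jund lay between these quartiles.

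When genes were ranked among all genes above 0 in each set, 5 of the 7 (Fos, Fosl2, Junb, Atf3 and Dusp1) ranked higher in the sorted values, against 18.8% of genes. Jun then stood at percentile 81.1 with Control SMO and 76.9 in the sorted values, and Jund at 74.8 and 75.8 in whole tumor and 68.6 in the sorted values. The call for Jun and Jund thus depended on which genes were ranked.

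**Figure D3:**
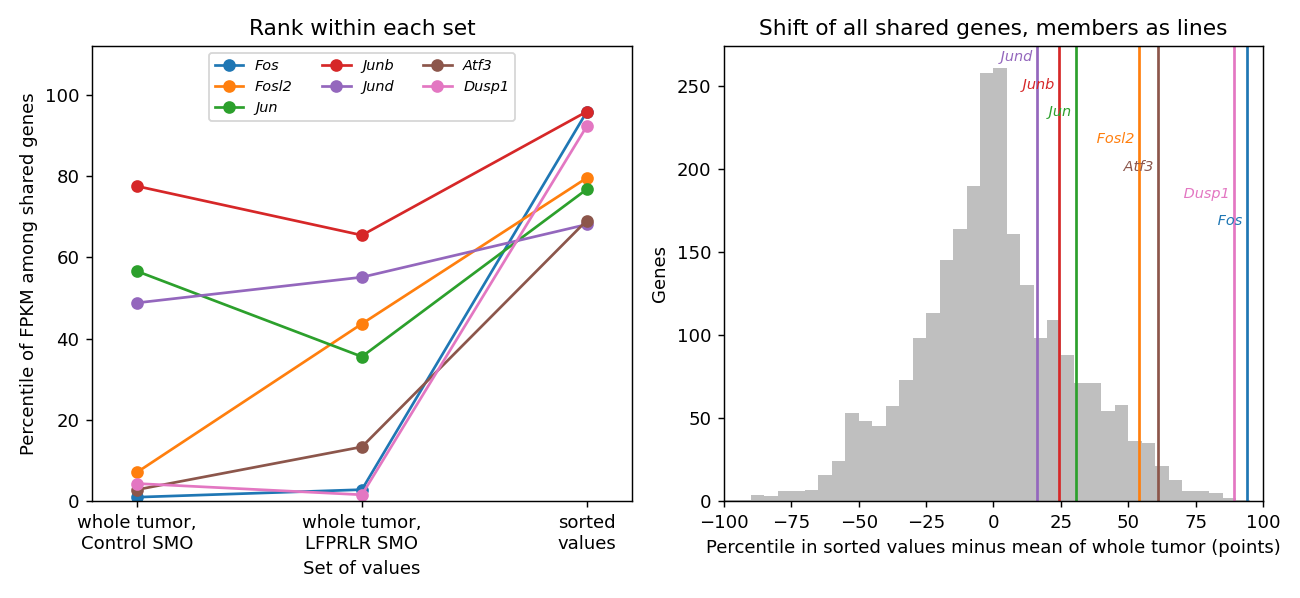
Left, percentile of FPKM of the 7 ranked members among the 2538 shared genes in each set (lines join values of 1 gene). Right, number of genes by shift in percentile points (sorted values minus the mean of whole tumor, bins of 5 points), with the members as vertical lines; Fos at 93.8 and Dusp1 at 89.2 lie at the far right edge of all genes.

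Set against Actb, the cytoskeletal actin gene, in the same library, the order was the same at the top. Per 1000 units of Actb, Fos was 2.80 with Control SMO, 4.54 with LFPRLR SMO and 63.8 in the sorted values, which was 22.8 times and 14.0 times higher. Both ratios were the highest of the 2538 genes, whose medians were 0.352 and 0.332. Dusp1 was 4.31, 3.81 and 37.3 per 1000, or 8.65 and 9.78 times higher, and Junb was 46.5, 31.8 and 65.5. Jun and Jund were lower in the sorted values on this scale, with ratios of 0.653 and 0.974 for Jun and 0.627 and 0.503 for Jund. Both genes were still above the median gene of the same ratio. The direction for Jun and Jund depends on the reference gene. Actb was at an FPKM of 498, 401 and 440, but Ppia, another housekeeping gene, was at 466, 146 and 27.8. Of 13 ranked housekeeping genes, 6 ranked higher in the sorted values, Actb among them, and 6 lower, Ppia among them. Ratios to other housekeeping genes were not computed.

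The 22 macrophage genes moved with this result, with 20 of the 21 ranked genes higher in the sorted values than in both whole tumor libraries. Their summed FPKM was 771 with Control SMO, 522 with LFPRLR SMO and 605 in the sorted values, and Apoe, the highest of them, was at 206, 121 and 231. Per 1000 units of this sum, Fos was 1.81, 3.49 and 46.4, and Dusp1 was 2.79, 2.93 and 27.2. Against Actb, macrophage genes were at a median ratio of 1.27 to the Control SMO library and at most 3.28, and at a median of 1.44 to LFPRLR SMO and at most 3.69, below Fos and Dusp1. Atf3 and Fosl2 were at 3.42 and 3.16 to Control SMO, but at 1.5 and 0.879 to LFPRLR SMO, within the range of the macrophage genes. The part of macrophage content in the ranks of the members was not tested. Dissociation, sorting, cell makeup, mice and program all differed between whole tumor and the sorted values and cannot be told apart.

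The members summed to an FPKM of 60.5 with Control SMO, 58.6 with LFPRLR SMO and 98.7 in the sorted values. The last sum is not on the scale of the others, since all genes summed to 200304, 176330 and 311213. The balance of AP-1 subunits differed between the sets. The Jun family summed to 44.8, 29.0 and 41.1, and the Fos family (Fos and Fosl2) to 4.09, 9.63 and 35.6. The ratio of Jun to Fos family was thus 11.0 with Control SMO, 3.01 with LFPRLR SMO and 1.15 in the sorted values. It was 12.2, 6.88 and 1.30 in exon-weighted values, which scale the FPKM of each transcript by how many exon bases of the gene it holds, relative to the longest transcript in the annotation. Fosb, the remaining Fos family gene, is not among the 10 genes. It had no listed transcript in whole tumor and an FPKM of 13.0 in the sorted values, and with it the Fos family there summed to 48.6 and the ratio was 0.847.

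Between whole tumor libraries the question was whether LFPRLR SMO went with a change of the same genes in intact tissue. Ratios are log2((LFPRLR SMO + 0.1)/(Control SMO + 0.1)) of FPKM, which understates changes of low genes. Of 9 members, 2 were higher by a factor of at least 2, Egr1 at 2.14 and Fosl2 at 1.5, where 18.4% of 10433 genes were higher. None was lower by this factor, where 16.6% of genes were. The 10433 genes included genes with no listed transcript in 1 library, which was taken as 0. Of 8542 genes at an FPKM of 1 or more in each library, as all 9 members were, 935 were higher and 883 lower. The median ratio was 0.01 over the members and -0.08 over the 10433 genes.

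Egr1 and Fosl2 were also the members with more listed transcripts with LFPRLR SMO. The single Control SMO transcript of Egr1 was at 2.56, and its 3 LFPRLR SMO transcripts were at 4.76, 2.38 and 4.44 and did not overlap each other. A sum of FPKM counts such pieces as if each were a whole transcript. In exon-weighted values the ratio of Egr1 was 0.35 and that of Fosl2 was 0.12. No member then passed a factor of 2 in either direction, where 5.66% of 8831 genes were higher and 8.03% lower.

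The same was counted over all genes. Of 935 genes higher by a factor of 2 and past an FPKM of 1 in each library, 774 (82.8%) had more listed transcripts with LFPRLR SMO, and 95 were still higher by this factor in exon-weighted values. Of 883 genes lower by this factor, 592 (67.0%) had more listed transcripts with Control SMO, and 218 were still lower in exon-weighted values. Over all 8542 such genes, 31.3% had more listed transcripts with LFPRLR SMO and 22.4% with Control SMO. The calls for Egr1 and Fosl2 thus depended on how pieces were added.

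**Figure D4:**
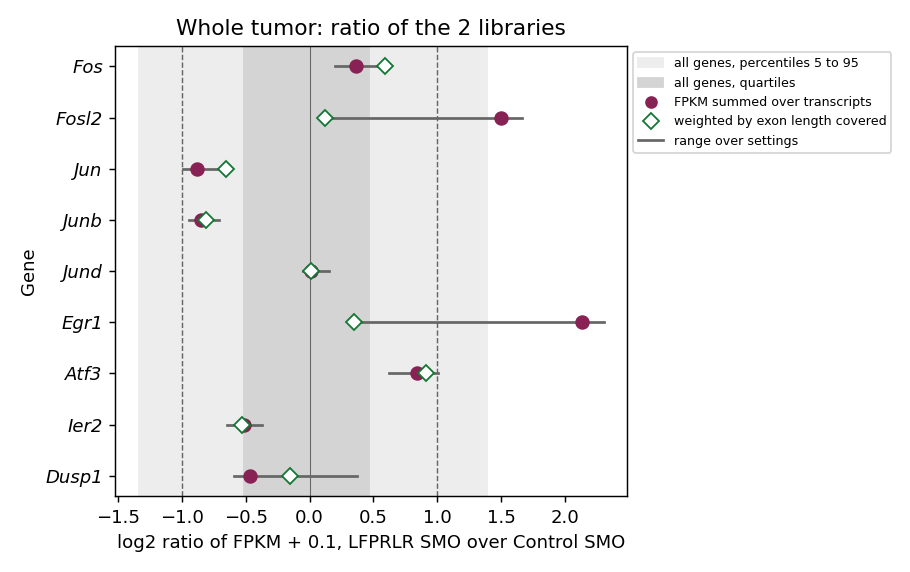
log2 ratio of LFPRLR SMO to Control SMO in whole tumor for 9 members, as summed FPKM (filled circles), as exon-weighted value (open diamonds) and as the range over up to 11 settings (lines); dashed lines mark a factor of 2, and shading shows the quartiles and percentiles 5 to 95 of 8542 genes past an FPKM of 1 in each library. Egr1 and Fosl2 pass the dashed line as summed FPKM (2.14 and 1.5) and not as exon-weighted values (0.35 and 0.12).

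Jun and Junb were both lower with LFPRLR SMO, short of a factor of 2. The ratio of Jun was -0.88 and that of Junb -0.85, and 12.8% and 13.5% of the 8542 genes past an FPKM of 1 in each library lay below them. Each was a single transcript in both libraries, and exon-weighted ratios were -0.65 and -0.81. The bounds deposited with each FPKM were 10.01 to 12.7 against 5.46 to 7.48 for Jun, and 18.5 to 23.5 against 10.3 to 13.9 for Junb, and did not overlap. These bounds describe the estimate in 1 library and not the spread between mice, and 94.8% and 96.1% of transcripts had an FPKM inside their own bounds.

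Atf3 was higher with LFPRLR SMO at 0.84, and at 0.91 as the exon-weighted value, with bounds of 0.747 to 2.71 and 1.56 to 4.69 that overlapped. Fos was at 0.37, and its bounds of 0.717 to 2.03 and 1.19 to 2.45 overlapped. Jund was at 0.01, Dusp1 at -0.46 and Ier2 at -0.51. The sign for Dusp1 turned with the most abundant transcript only, to 0.37, since Control SMO listed 2 overlapping transcripts. Fos, Jun, Junb, Egr1, Fosl2, Atf3 and Ier2 kept their sign over all 11 settings.

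Other genes of the pathway were taken from lists. Of 42 other immediate early genes, 26 were ranked in all sets, and 20 ranked higher in the sorted values and 6 lower. Zfp36, whose protein binds AU-rich transcripts and speeds their decay, was at an FPKM of 2.46, 4.96 and 27.3, close to the course of Fos. Mcl1, an anti-apoptotic Bcl-2 family gene, was at 14.9, 11.5 and 22.6. Gadd45a, a growth arrest gene, was at 13.3, 42.7 and 1.77, and Btg1, an antiproliferative gene, at 42.2, 34.6 and 10.7. Percentiles were 61.2, 91.2 and 21.3 for Gadd45a and 87.5, 89.3 and 87.0 for Btg1. The early genes thus did not all move one way. In whole tumor 4 of 37 were higher by a factor of 2 with LFPRLR SMO and 4 lower.

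Of 19 other AP-1 and bZIP genes, 5 were ranked, with 2 higher in the sorted values and 2 lower. Nfe2l2, the factor of the oxidative stress response, was at 14.5, 10.2 and 1.04. In whole tumor none of 15 was higher by a factor of 2 and 3 were lower.

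Upstream, of 28 genes of the MAP kinase and serum response factor pathway, 10 were ranked, with 3 higher in the sorted values and 4 lower. Mapk3, which encodes ERK1, was at 18.1, 6.57 and 3.07. Its percentiles were 71.5, 36.5 and 44.2, so its rank in the sorted values lay between those of the whole tumor libraries. In whole tumor 3 of 26 were higher by a factor of 2 and 7 lower. The lower genes included Elk1 and Crem, named after their values were seen, which had no listed transcript with LFPRLR SMO. Of 16 dual specificity phosphatases other than Dusp1, only 3 were ranked, with 1 higher and 1 lower. Dusp6, an ERK phosphatase, was at 27.1, 18.3 and 6.71 (percentiles 80.5, 76.5 and 75.6), without the rise in rank of Dusp1.

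Of 26 genes known as AP-1 targets, 17 were ranked, with 9 higher in the sorted values and 7 lower. Mmp9, a gelatinase, was at 33.2, 55.8 and 101, and Spp1, which encodes osteopontin, at 602, 534 and 144. Percentiles were 84.0, 93.1 and 99.5 for Mmp9 and 99.8, 99.7 and 99.7 for Spp1. Of 18 heat shock and stress genes, 9 were ranked, with 2 higher and 7 lower. Hsp90ab1, a cytosolic chaperone gene, was at 262, 248 and 37.3 (percentiles 98.5, 98.9 and 96.9). It ranked lower in the sorted values, as did 7 of the 9 ranked genes. The 2 that ranked higher were Hspa8, the constitutive Hsp70 gene, and Hmox1, the heme oxygenase gene, which was named after its values were seen. Hspa8 was at 316, 253 and 70.9 (percentiles 98.9, 98.9 and 99.2) and Hmox1 at 6.68, 5.97 and 43.1. All 4 ranked fibroblast genes and 7 of 8 ranked epithelial genes were lower there.

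**Figure D5:**
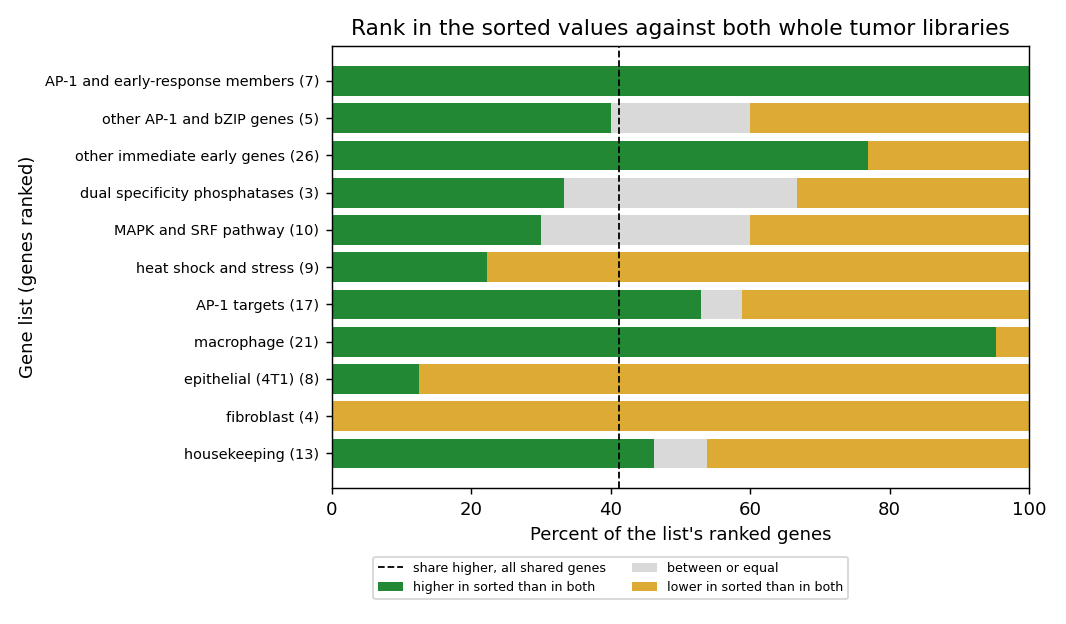
Percent of the ranked genes of each list (number in brackets) that ranked higher in the sorted values than in both whole tumor libraries (green), lower than in both (yellow) or neither (grey); the dashed line is the share of all 2538 genes that ranked higher (41.2%). All 7 members, 20 of 26 other immediate early genes and 20 of 21 macrophage genes were higher, against 2 of 9 heat shock and stress genes.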

How the data were processed

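RNAseq libraries of whole 4T1 tumor and of sorted tumor Tregs, each a pool of 6 mice, were rRNA-depleted and sequenced on an Illumina MiSeq. The authors deposited transcript lists on mm10 with an FPKM and a coverage per transcript, assembled by Cufflinks for whole tumor, with lower and upper bounds, and made by StringTie for tumor Tregs. According to the submitters' processing notes, the tools were Cufflinks (version not given in the sources used here), Cuffdiff 2.0.2, StringTie 1.2.3 and HISAT2 2.0.4.

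From these files, transcripts were assigned in Python 3.11.15 to genes of GENCODE M21 (GRCm38) by a shared intron, or else by at least 50% of exon bases, with strand where listed. FPKM was summed over transcripts of at least 300 bases. A pseudocount of 0.1 and a factor of 2 were used, over genes that reached an FPKM of 1 in either tumor library. With 1 library per group no test was made. Scripts were tested on simulated data. Members and lists were chosen with earlier results of these data known. From each list, the 2 genes with the highest FPKM in each library and the 2 with the largest ratios could be named, and a few of them are not reported here. Alternatives changed the transcript length, the sum over transcripts, the scale, the pseudocount, the overlap and the genes ranked. The ranks with genes at 0 placed last, the values per unit of Actb and of the macrophage genes, and Fosb in the Fos family were added after seeing the data.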

Additional observations from a re-analysis of the deposited data

How the results depend on the processing

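The count of members higher by a factor of 2 with LFPRLR SMO was 2, and it was 1 with the most abundant transcript only, 0 in exon-weighted values, 1 at a factor of 3, and 3 at a factor of 1.5 or as TPM (Atf3 added in both). The count of members lower was 0, and 2 at a factor of 1.5 (Jun and Junb). All 7 ranked members stayed higher in the sorted values without a length minimum, with transcripts of at least 500 bases, in exon-weighted values, with deposited symbols and with genes at 0 placed last. In the last of these settings Egr1 and Ier2, listed at 0 in the sorted values, stood at the bottom there and were not higher. The count of members higher was 6 with the most abundant transcript only and 5 when ranked among all genes of each set. Of 89 ratios of single members under other settings, 84 moved by less than 1.5-fold and 5 by more (Egr1 under 3 settings, Fosl2 and Dusp1 under 1 each). Of 126 percentiles, 26 moved by more than 10 points. With 1 pool per group, no replicate could be left out. No paired analysis was possible because each group was 1 library.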
